A study of Solanum lycopersicum with 9 samples.

Results

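Glandular trichomes are hair-like structures of the tomato epidermis that make and store terpenes and other defence compounds. WOOLLY, a homeodomain-leucine zipper transcription factor, and HAIR, a C2H2 zinc finger protein that binds WOOLLY, are known for trichome formation, while MYC1, a bHLH transcription factor, is known for the development of type VI glands and for terpene formation in them. Terpene synthases convert prenyl diphosphates into terpenes. TPS5 makes a monoterpene, linalool, and TPS12 makes the sesquiterpenes beta-caryophyllene and alpha-humulene.

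The expression of these 5 genes was followed in all 9 RNA-Seq libraries. They were taken by their IDs, Solyc02g080260 (WOOLLY), Solyc10g078970 (HAIR), Solyc08g005050 (MYC1), Solyc01g105890 (TPS5) and Solyc06g059930 (TPS12), a rule that uses no measured value. They account for 6 of the 33989 gene models in the table, since TPS12 has 2. WOOLLY (Solyc02g080260.3.1) lies on the plus strand of chromosome 2 from 45086221 to 45092072, and the second TPS12 model (Solyc06g059930.3.1) lies on the plus strand of chromosome 6 from 37959767 to 37981083, both on build SL3.0. No position is given for the models of HAIR (Solyc10g078970.1), MYC1 (Solyc08g005050.3) and TPS5 (Solyc01g105890.3), or for the first TPS12 model (Solyc06g059930.3). In RefSeq's gene table for assembly SLM_r2.1, 3 of the 5 genes were found by symbol or synonym. MYC1 (synonym JAMYC10) and TPS12 (synonym CAHS) matched by symbol, and TPS5 is a synonym there of MTS1.

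The libraries form 3 groups of 3. The OE group (OE1, OE30 and OE9) is labelled as flower of the cultivar Compound raceme. It was taken as the plants that carry WRKY-B fused to GFP, a tag, under the cauliflower mosaic virus promoter that drives expression in most tissues, although its labels do not name the transgene. Control CK2 is labelled as bud of Compound raceme, and control CK1 as bud of the cultivar monomaker. The study describes axillary buds of Ailsa Craig plants at 45 d, with plants pooled in each replicate, and which account holds is not settled by these sources. By the labels, overexpression and tissue cannot be told apart in either comparison of OE with a control, and cultivar cannot be told apart from them against CK1. Whether OE1, OE30 and OE9 are separate transgenic lines is not stated.

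The values are FPKM, fragments scaled for the length of the transcript and for the size of the library, so levels of different genes are compared per length. Read totals are not given and the depth is unknown. The sum of all FPKM of a library was 615715 to 684351 in OE, against 743707 to 769380 in the 6 control libraries. WRKY-B (Solyc02g071130.3), the overexpressed gene, was at 74.0, 93.5 and 205.7 FPKM in OE1, OE30 and OE9, against 0.40, 0.40 and 0.08 FPKM in CK2 and 0.87, 0.71 and 0.55 FPKM in CK1. It was higher in every OE library than in any control library. Floral organ identity genes, a list of 6 loci written from general knowledge, summed to 405.4 to 447.0 FPKM in OE, against 1277 to 1325 FPKM in CK2 and 968.9 to 987.6 FPKM in CK1, so that the list was lowest in the group labelled flower, with 7 of 8 models tested called lower in OE against CK2 (23.2% of all gene models) and 6 of 8 against CK1 (21.8% of all). Shoot meristem and bud genes, a list of 5 loci, summed to 47.7 to 64.5 FPKM in OE, against 19.5 to 22.1 FPKM in CK2 and 27.5 to 30.2 FPKM in CK1, with 5 of 6 models called higher in OE against CK2 (25.8% of all), of which 2 reached 0.5 FPKM in OE only, and 4 of 6 higher (17.5% of all) and 1 lower in OE against CK1, of which 1 of the higher reached it in OE only. The part of such tissue differences in the results that follow was not tested. In a whole organ, fewer trichome cells and less RNA per trichome cell cannot be told apart.

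Groups were compared by limma-trend on values of log2(FPKM + 0.1). A call required at least a 2-fold change and an adjusted p under 0.05 (Benjamini-Hochberg, over all gene models tested). Testing required 0.5 FPKM in at least 3 of the 6 libraries compared. WOOLLY, MYC1 and TPS5 were tested in all 3 comparisons and the second TPS12 model in those with CK2, while HAIR and the first TPS12 model were under the minimum everywhere. The comparisons share libraries, so their results are given side by side and are not independent.

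WOOLLY was lowest in CK2. It was at 12.6, 10.9 and 13.5 FPKM in OE1, OE30 and OE9, at 5.70, 6.03 and 5.66 FPKM in CK2, and at 13.2, 13.4 and 14.4 FPKM in CK1. Every CK2 library lay below every other library, while OE and CK1 overlapped. WOOLLY averaged 12.4 ± 1.31 FPKM in OE and 5.80 ± 0.203 FPKM in CK2 (SD, n = 3 each), a log2 fold change of 1.07 (standard error 0.12, 95% interval 0.78 to 1.37), or 2.11-fold, and was called higher in OE (adjusted p = 0.000364, limma-trend). It averaged 13.7 ± 0.652 FPKM in CK1 (SD, n = 3). The log2 difference of OE from CK1 was −0.15 with a 95% interval of −0.42 to 0.13 (adjusted p = 0.296, limma-trend), and no difference was called. After median-ratio scaling it was −0.28 (95% interval −0.52 to −0.04, adjusted p = 0.0466), which is also under 2-fold. CK2 differed from CK1 by −1.22 on the log2 scale (standard error 0.06, 95% interval −1.37 to −1.07, adjusted p = 4.01e-06, limma-trend), and WOOLLY was called lower in CK2.

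MYC1 had its highest values in CK2. It was at 19.9, 10.6 and 18.8 FPKM in OE1, OE30 and OE9, at 29.2, 26.7 and 29.8 FPKM in CK2, and at 15.7, 18.8 and 16.4 FPKM in CK1. All CK2 libraries were above all others, and OE spanned the whole range of CK1. The mean was 16.5 ± 5.07 FPKM in OE and 28.6 ± 1.66 FPKM in CK2 (SD, n = 3 each), and the log2 fold change of −0.85 (standard error 0.25, 95% interval −1.44 to −0.25, adjusted p = 0.0211, limma-trend) passed the adjusted p but was under 2-fold, so MYC1 was not called. It was −0.56 without OE30 (adjusted p = 0.00183), −1.01 and called without OE1 (adjusted p = 0.0170), and the adjusted p was 0.0545 without CK2 replicate 1 and 0.0562 without CK2 replicate 3. Against CK1, where it averaged 17.0 ± 1.60 FPKM (SD, n = 3), the difference of OE was −0.09 with a 95% interval of −0.70 to 0.51 (adjusted p = 0.762, limma-trend). MYC1 was 1.69-fold higher in CK2 than in CK1 (log2 fold change 0.75, standard error 0.08, adjusted p = 0.000133, limma-trend), again under the 2-fold limit. The calls of WOOLLY and MYC1 in OE against CK2 depended on the scale of the libraries. Scaling each library by its median ratio lowered the log2 fold changes by a median of 0.31 over 24793 gene models. MYC1 was then called (−1.16, adjusted p = 0.00465) and WOOLLY was not (0.76, adjusted p = 0.00104, both limma-trend), each in its unscaled direction.

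TPS5 varied more among the OE libraries than between the groups. It was at 6.14, 3.11 and 9.46 FPKM in OE1, OE30 and OE9, at 6.37, 6.24 and 5.99 FPKM in CK2, and at 3.96, 4.14 and 4.16 FPKM in CK1. The OE libraries thus held both the lowest and the highest values of the 9, while the control groups did not overlap. The ratio of the highest to the lowest OE library, each with 0.1 FPKM added, was 2.98 for TPS5, 1.86 for MYC1 and 1.23 for WOOLLY, beside a median of 1.47 and an upper quartile of 1.97 over the 24905 gene models tested. TPS5 averaged 6.24 ± 3.18 FPKM in OE and 6.20 ± 0.193 FPKM in CK2 (SD, n = 3 each), and the log2 difference was −0.13 with a 95% interval of −1.06 to 0.81 (adjusted p = 0.782, limma-trend). Without OE30 it was 0.29, in the other direction (adjusted p = 0.227). Against CK1, at 4.09 ± 0.110 FPKM (SD, n = 3), the difference of OE was 0.46 with a 95% interval of −0.47 to 1.396 (adjusted p = 0.331, limma-trend). It was 0.88 without OE30 (adjusted p = 0.0123) and 0.10 without OE9 (adjusted p = 0.796). These intervals include changes of more than 2-fold in at least 1 direction and do not show that TPS5 was alike in the groups. Between the controls TPS5 was 1.51-fold higher in CK2 than in CK1 (log2 fold change 0.59, standard error 0.08, adjusted p = 0.000372, limma-trend), which is under the 2-fold limit. With all 9 libraries in 1 fit the adjusted p was 0.173.

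**Figure D1:**
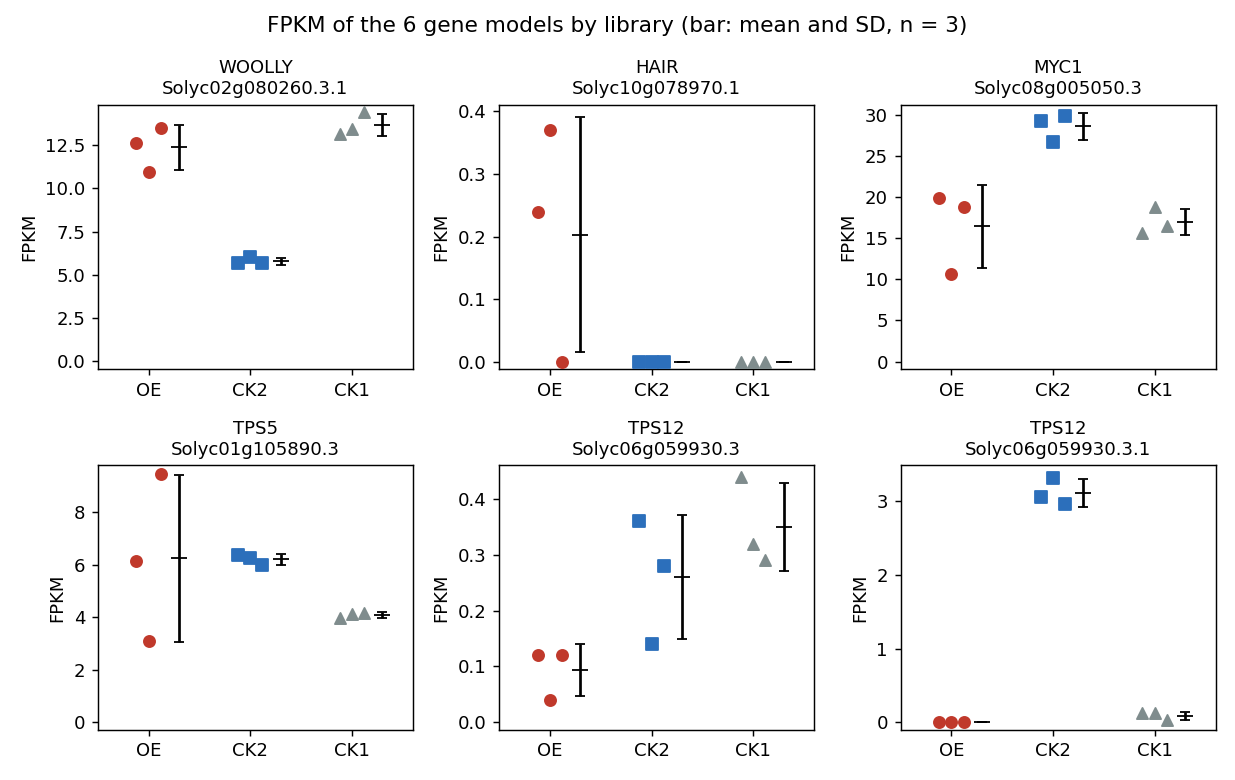
FPKM of the 6 gene models (1 panel each, linear axes from 0) in the OE, CK2 and CK1 libraries. Points are libraries, and the bars beside them are the mean and SD of 3. WOOLLY was lowest and MYC1 highest in CK2, TPS5 ranged from 3.11 to 9.46 FPKM in OE, and the second TPS12 model was near 3 FPKM in CK2 only.

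TPS12 was found in CK2 at a level that the other groups did not reach. Its second model, Solyc06g059930.3.1, was listed at 0 in all 3 OE libraries, at 3.06, 3.32 and 2.96 FPKM in CK2 and at 0.12, 0.12 and 0.03 FPKM in CK1. The groups did not overlap, and 50.1%, 52.1% and 50.1% of the gene models in the CK2 libraries were below it. The model reached the minimum for testing through the CK2 libraries alone, so it could be tested only because it was high there, and its calls, lower in OE than in CK2 and higher in CK2 than in CK1, add nothing to the values. No fold is given for OE because it was listed at 0. In CK2 it averaged 3.11 ± 0.186 FPKM and in CK1 0.0900 ± 0.0520 FPKM (SD, n = 3 each). The log2 ratio of these means was 5.11.

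The first TPS12 model, Solyc06g059930.3, was under 0.5 FPKM in every library and was not tested. It was at 0.12, 0.04 and 0.12 FPKM in OE, at 0.36, 0.14 and 0.28 FPKM in CK2, and at 0.44, 0.32 and 0.29 FPKM in CK1. OE was below both controls, which overlapped each other. The second model held 89.5%, 96.0% and 91.4% of the summed FPKM of the locus in the CK2 libraries, and 21.4%, 27.3% and 9.38% in the CK1 libraries. In the OE libraries it held 0%. The locus summed to only 0.32 to 0.56 FPKM in the CK1 libraries and 0.04 to 0.12 FPKM in OE, so the shares there rest on low values. The controls differed in the level of the second model, while the first overlapped between them, so a switch between the models is not shown. How reads shared by the models were divided is not stated, so the split between them is uncertain. No other gene model with a position overlapped Solyc06g059930.3.1. Only 8423 of the 33989 gene models have a position, and the first TPS12 model has none, so overlap with the rest could not be seen.

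HAIR was hardly detected. It was at 0.24 FPKM in OE1 and 0.37 FPKM in OE30 and was listed at 0 in OE9 and in all CK2 and CK1 libraries. Since OE9 was at 0 as well, OE overlapped both controls (exact p = 0.4 against each, permutation test). No fold is given because the controls were listed at 0. With the depth unknown, a limit for the libraries at 0 could not be given.

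Counted over the members, 2 of the 4 models tested were called in OE against CK2, WOOLLY higher and, through the minimum described above, the second TPS12 model lower, beside 49.0% of all 24905 gene models tested (25.8% higher and 23.2% lower). With MYC1, 3 of the 4 had an adjusted p under 0.05 at any fold, beside 69.3% of all, and the same 3 had groups that did not overlap, beside 75.0% of all. In OE against CK1, 0 of the 3 models tested were called by limma-trend, and 0 had an unadjusted p under 0.05, beside 39.2% called of 24448 gene models. At any fold 62.6% of all passed the adjusted p, and 71.6% had groups that did not overlap, against 0 of the 3 members by either count. In CK2 against CK1, 2 of 4 were called, WOOLLY lower and the second TPS12 model higher, beside 27.0% of 25268 gene models (13.0% higher and 14.0% lower). All 4 passed the adjusted p at any fold, beside 69.6% of all, although TPS5 did not with all 9 libraries in 1 fit, and all 4 had groups that did not overlap, beside 74.0% of all. The counts at any fold and of groups that did not overlap also include the second TPS12 model, which was tested only through CK2. Leaving it out, 1 of 3 members was called in each comparison with CK2. Those that passed the adjusted p and did not overlap were then WOOLLY and MYC1 in OE against CK2. In CK2 against CK1 they were WOOLLY, MYC1 and TPS5. None of these shares is distinguished from the background. Median-ratio scaling turned the split of all calls to 4627 higher and 6989 lower in OE against CK2, to 3573 higher and 5924 lower in OE against CK1, and to 3862 higher and 2610 lower in CK2 against CK1. For each pair of groups that did not overlap, p was 0.1 in the exact permutation test (two-sided), which is the smallest that 3 libraries against 3 allow.

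**Figure D2:**
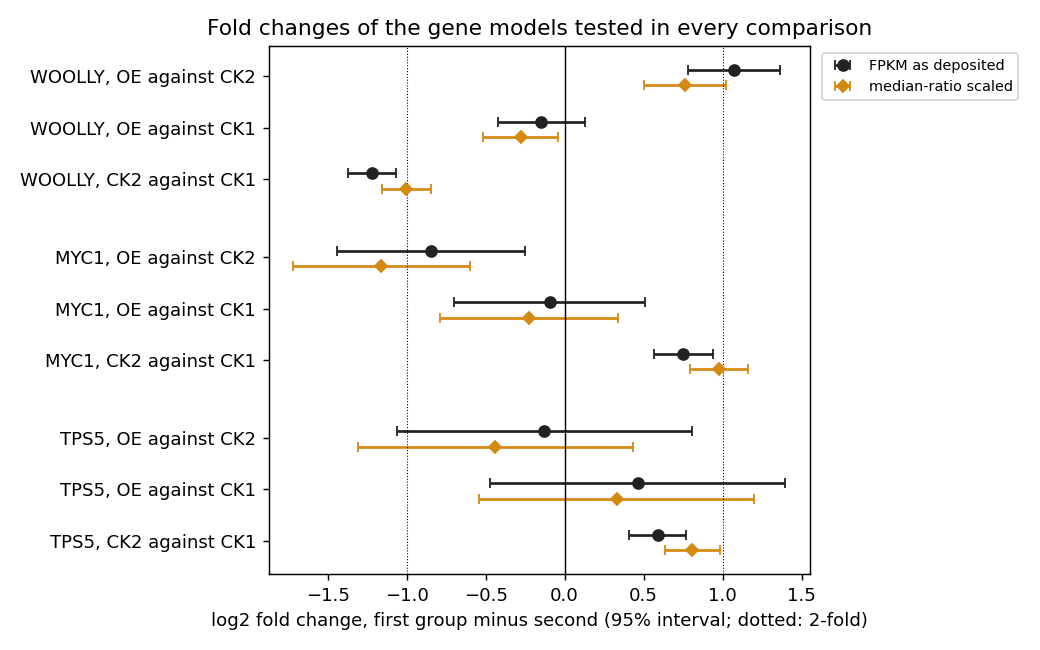
Log2 fold changes with 95% intervals from limma-trend for WOOLLY, MYC1 and TPS5 in the 3 comparisons (first group minus second), from FPKM as deposited and after median-ratio scaling. Dotted lines mark 2-fold. Scaling moved WOOLLY in OE against CK2 inside the 2-fold line (1.07 and 0.76) and MYC1 outside it (−0.85 and −1.16).

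Ratios between genes within a library do not depend on how the library was scaled. MYC1 over WOOLLY was 1.57, 0.972 and 1.395 in OE1, OE30 and OE9, 5.13, 4.43 and 5.27 in CK2, and 1.19, 1.397 and 1.14 in CK1. MYC1 therefore exceeded WOOLLY severalfold in CK2 and was close to it in OE and CK1. The ratio in OE was 0.261 times that in CK2 (log2 difference −1.94, exact p = 0.1), and it was 1.04 times that in CK1 (log2 difference 0.05, exact p = 1, groups overlapping). The ratio in CK2 was 3.98 times that in CK1 (exact p = 0.1).

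TPS5 over MYC1 was 0.309, 0.293 and 0.502 in OE1, OE30 and OE9, 0.218, 0.234 and 0.201 in CK2, and 0.252, 0.221 and 0.253 in CK1. Every OE library was above every control library, although neither gene was called higher in OE. The ratio in OE was 1.64 times that in CK2 and 1.48 times that in CK1 (exact p = 0.1 each). CK2 and CK1 overlapped, at 0.898 times (exact p = 0.2). TPS5 over WOOLLY was 0.486, 0.284 and 0.700 in OE, 1.12, 1.04 and 1.06 in CK2, and 0.301, 0.308 and 0.289 in CK1, so that OE30 was just below the CK1 libraries while OE1 and OE9 lay between the controls. These 9 ratio comparisons cannot reach a p under 0.05 with 3 libraries a group.

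**Figure D3:**
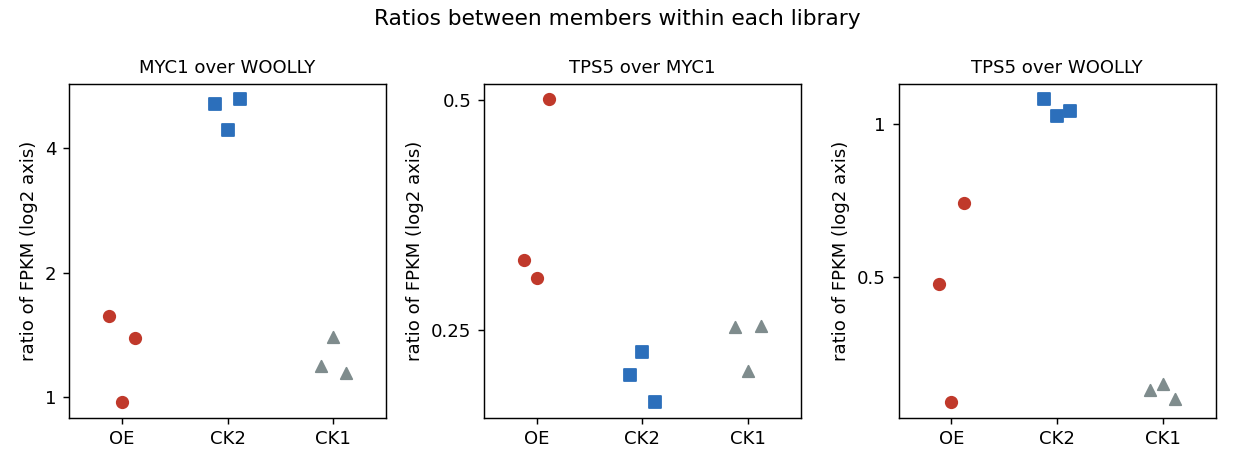
Ratio of FPKM between 2 genes of the same library (log2 axes) in OE, CK2 and CK1, with 1 point per library. MYC1 over WOOLLY was 4.43 to 5.27 in CK2 and at most 1.57 in the other groups, and TPS5 over MYC1 was above 0.29 in OE only.

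OE30 had the lowest value of the 3 OE libraries for 4 of the 6 member models, WOOLLY, MYC1, TPS5 and the first TPS12 model. Over all 24905 gene models tested OE30 was the lowest in 43.7%, OE1 in 30.1% and OE9 in 19.3%. Without OE30, the log2 difference of MYC1 in OE from CK1 was 0.19, in the other direction (adjusted p = 0.136). OE30 was not the library with the least WRKY-B, which was OE1.

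Other genes of the pathway are given by ID, from lists of loci written from general knowledge, since no table available here pairs these IDs with names. Of 7 loci listed as other trichome regulators, 6 were in the table and 5 models were tested. In OE against CK2, 2 were called higher and 0 lower, beside 25.8% higher and 23.2% lower over all gene models. The median log2 fold change of the list was 0.32, beside 0.17 over all gene models, and 1 of them was called after median-ratio scaling. In OE against CK1, 0 were called higher and 1 lower, beside 17.5% and 21.8% of all (median 0.46, beside 0.01 over all). In CK2 against CK1, 0 were called higher and 2 lower, beside 13.0% and 14.0% of all (median −0.62, beside −0.23 over all). The most abundant, Solyc05g052620.3, was at 51.6, 57.8 and 49.6 FPKM in OE, at 22.9, 25.1 and 24.5 FPKM in CK2, and at 25.6, 26.1 and 27.8 FPKM in CK1. OE was above both controls, and the model was called against CK2 (log2 fold change 1.13, adjusted p = 9.97e-05, limma-trend) but was just under 2-fold against CK1 (0.99). Its margin over 2-fold against CK2 was smaller than the median shift of 0.31 that median-ratio scaling made. Solyc01g091630.3, at 34.4, 23.0 and 33.2 FPKM in OE, had means of 25.6 FPKM in CK2 and 21.6 FPKM in CK1 and was called in none of the comparisons. Solyc03g031760.3 was at 36.1, 36.0 and 45.3 FPKM in OE, at 7.76, 8.01 and 7.80 FPKM in CK2, and at 25.5, 24.9 and 24.2 FPKM in CK1. Like WOOLLY it was lowest in CK2, but OE was also above CK1 without overlap. Its log2 fold change was 2.29 in OE against CK2 (adjusted p = 1.42e-05, limma-trend) and −1.65 in CK2 against CK1 (adjusted p = 2.25e-07, limma-trend), and both were called.

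Enzymes of isoprenoid precursor supply make the prenyl diphosphates on which terpene synthases act. Of the 12 loci listed, 13 models were tested, and 0 were called higher and 4 lower in OE against each control. Over all gene models 25.8% were called higher and 23.2% lower against CK2, and 17.5% and 21.8% against CK1. In CK2 against CK1 0 were called, beside 27.0% of all, with the same counts in all 3 comparisons after median-ratio scaling. The list's median log2 fold change was −0.27 in OE against CK2, beside 0.17 over all gene models, −0.27 in OE against CK1, beside 0.01, and 0.11 in CK2 against CK1, beside −0.23. Acylsugars are another product of glandular trichomes. Of 5 models listed for acylsugar synthesis 1 was tested, Solyc11g067270.1, at 0.40, 0.30 and 0.20 FPKM in OE, 2.19, 1.67 and 2.08 FPKM in CK2, and 1.71, 1.56 and 1.47 FPKM in CK1. OE lay below both controls. The model reached the minimum for testing through the controls alone, so no p is given.

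Most other terpene synthases on the list were hardly expressed. Of their 16 models, 11 were under 0.5 FPKM in every library and 5 reached that level in at least 1. In OE against CK2, 0 of the 3 tested were called higher and 1 lower, beside 25.8% and 23.2% of all gene models. In OE against CK1, 0 of 5 were higher and 2 lower, beside 17.5% and 21.8% of all. In CK2 against CK1, 1 of 5 was higher and 1 lower, beside 13.0% and 14.0% of all. The counts of the list were the same after median-ratio scaling. All models called lower here reached the minimum only through the group where they were higher. Solyc01g105920.3, which is near TPS5 in ID number, was at 0.10, 0 and 0.10 FPKM in OE, at 13.0, 13.0 and 11.8 FPKM in CK2, and at 3.30, 3.66 and 3.27 FPKM in CK1. It was at 0.10 FPKM or less in OE, where TPS5 was at 3.11 FPKM or more. No p is given for OE, since the model was tested there only through the controls. It was called higher in CK2 against CK1 (log2 fold change 1.85, adjusted p = 1.67e-06, limma-trend).

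The OE libraries differed in terpene synthases of the list as well. Solyc06g059885.1, near TPS12 in ID number, was at 21.8, 0.92 and 1.78 FPKM in OE1, OE30 and OE9, at 7.47, 6.21 and 6.65 FPKM in CK2, and at 5.03, 5.99 and 6.76 FPKM in CK1. OE1 was above all control libraries while OE30 and OE9 were below them, and no difference from CK2 was called (log2 difference −0.98, adjusted p = 0.454, limma-trend). Solyc08g005640.3 was at 4.31, 0.55 and 0.66 FPKM in OE1, OE30 and OE9, and Solyc08g005720.3.1 at 2.28, 0.12 and 0.22 FPKM. OE1 was thus the highest OE library for all 3 listed models that reached 0.5 FPKM in OE, whereas TPS5 was highest in OE9.

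The gene model most like each member was taken by Pearson's r of log2(FPKM + 0.1) across the 9 libraries, among 22890 gene models, as a description only, since the 9 points fall into 3 groups. For WOOLLY it was Solyc02g070000.3 (r = 0.995), at 14.9, 11.1 and 17.5 FPKM in OE1, OE30 and OE9, with means of 5.05 FPKM in CK2 and 16.0 FPKM in CK1. For MYC1 it was Solyc10g074940.2 (r = 0.983), with means of 9.62 FPKM in OE, 18.9 FPKM in CK2 and 10.5 FPKM in CK1. For TPS5 it was Solyc01g091170.3.1 (r = 0.982), at 101.5, 50.1 and 241.6 FPKM in OE1, OE30 and OE9, the same order of OE libraries as TPS5. For the second TPS12 model it was Solyc01g100920.3 (r = 0.998), with means of 6.16 FPKM in OE, 28.8 FPKM in CK2 and 7.43 FPKM in CK1. The patterns differed in how common they were. An r of 0.95 or more was found for 1277 gene models with the second TPS12 model, for 413 with WOOLLY, for 36 with MYC1 and for 8 with TPS5.

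Gene models within 50 ID numbers of the members also held some that were at 0.29 FPKM or less outside CK2, chosen here after their values were seen. Solyc08g005040.1, beside MYC1 in ID order, was listed at 0 in all OE libraries, at 85.6, 96.0 and 86.5 FPKM in CK2 and at 0.29 FPKM in each CK1 library. Solyc10g078940.2, near HAIR, was listed at 0 in all OE libraries, at 48.2, 43.2 and 44.6 FPKM in CK2 and at 0, 0.12 and 0.12 FPKM in CK1. Both had the order of groups that the second TPS12 model had.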

How the data were processed

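RNA was measured in 9 tomato libraries, 3 each of OE, CK2 and CK1. The authors deposited a table of FPKM for each gene model in each library. Another 27 deposited columns give log2 ratios, p-values and q-values from comparisons by the authors, and these were not used. The submitters' processing notes name RSEM 1.2.12, DESeq2 1.4.5, HISAT2 2.0.4 and Bowtie2 2.2.5 without their roles. Positions in the table are on build SL3.0, while the study names another build.

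Groups came from the sample labels. The test planned for FPKM was limma-trend (limma 3.58.1, R 4.3.3) on log2(FPKM + 0.1), with only the 2 groups compared in each fit, 0.5 FPKM in at least 3 libraries as the minimum, and Benjamini-Hochberg adjustment over all gene models tested. Ratios were compared with exact permutation tests (Python 3.11.15, scipy 1.17.1). The fitting code was first tried on simulated data. The study describes biological replicates of pooled plants, the labels do not say how these libraries arose, and p-values measure the spread between them. Read depth is unknown. The rule for the members uses IDs only, but the members and lists were chosen with earlier results of these data known. Named list genes were among the 4 with the highest mean FPKM of a list, and any other is said to be chosen after its values were seen.

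Alternatives were log2(FPKM + 1), log2(FPKM + 0.01), no minimum, all 9 libraries in 1 fit, median-ratio scaling, summed FPKM of a locus, no fold limit, each library left out, and a replicate block for CK2 against CK1. The full set of replicate numbers is shared by CK2 and CK1 only.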

Additional observations from a re-analysis of the deposited data

How the results depend on the processing

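In OE against CK2, the number of members called was 2 with the settings of the report, 1 with log2(FPKM + 1), and 1 to 3 when a library was left out. It was 1 without any CK2 library, since the second TPS12 model then no longer reached the minimum in 3 libraries, and 3 without OE1, where MYC1 was called as well. WOOLLY was at 0.97 with log2(FPKM + 1) and at 0.76 with median-ratio scaling, both under 2-fold. The difference of TPS5 turned to 0.29 without OE30, and its range with a library left out was −0.49 to 0.29. In OE against CK1, 0 members were called whichever library was left out, and 1 without the minimum, the first TPS12 model as lower, while MYC1 turned to 0.19 without OE30 and ranged from −0.26 to 0.19 with a library left out. In CK2 against CK1, 1 to 2 members were called with a library left out and 4 with no fold limit, when MYC1 and TPS5 were included. With no minimum on FPKM, the second TPS12 model was called in both comparisons with CK2 (adjusted p = 1.26e-05 for OE and 2.55e-05 for CK1, limma-trend). It was listed at 0 in all OE libraries and at 0.12 FPKM or less in CK1. These p-values therefore rest on values at or near 0 in the lower group and add nothing to the values. With no fold limit 15307 gene models were called in OE against CK1 and 17599 in CK2 against CK1. With a library left out, 9457 to 11720 gene models were called in OE against CK2, 7427 to 9615 in OE against CK1 and 5537 to 5844 in CK2 against CK1. Other causes of these shifts were not tested. Same-numbered CK2 and CK1 libraries did not deviate together (correlations of −0.03, 0.01 and −0.01), and the replicate block called 6822 gene models and the same number of members, 2. No paired analysis was possible for OE because its set of library numbers is not that of the controls. With FPKM rounded to 2 decimals and the depth unknown, the low values of HAIR and the first TPS12 model are a description only. The size of any group difference in them cannot be given, and the call without the minimum rests on such values.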
